A study of Mus musculus with 8 samples.

Results

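The genes examined here were the NF-κB subunits and the inhibitors that NF-κB itself induces: Nfkb1, Nfkb2, Rel and Relb (subunits), Nfkbia and Nfkbie (cytoplasmic inhibitors), Nfkbiz, Bcl3 and Nfkbid (nuclear IκB proteins) and Tnfaip3 (A20). They were taken by symbol, and all 10 members were found among the 18901 genes of the deposited table. All 10 had enough counts to be tested. The members' transcripts were counted in injected cheek skin, in 4 libraries from TBX20fl/fl;K14-Cre animals and 4 from TBX20fl/fl controls. Both genotypes carried the floxed Tbx20 allele, were female, were 7 weeks old and received brain natriuretic peptide (BNP, 10 µg) by intradermal injection into the left cheek. The K14 promoter drives Cre in keratinocytes, so exons of Tbx20 are deleted there and not in the immune, vascular or nerve cells of the same skin. Scratching was recorded for 30 min and tissue was taken 5 h later. Untreated and vehicle-injected skin were not analysed here. Each library came from a separate mouse, per the study's description of these samples.

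NF-κB proteins are transcription factors that form dimers and turn on genes of inflammation. In resting cells the cytoplasmic IκB proteins hold the dimers out of the nucleus. Cytokines, bacterial products and tissue damage lead to IκB breakdown, and the released dimers then switch on cytokine and chemokine genes together with genes that end the response. IκBα and A20 are the standard examples of such negative feedback. IκBζ, BCL3 and IκBNS act in the nucleus, where they bind p50 or p52 and either help or block transcription. In skin, NF-κB is active in keratinocytes, endothelial cells, fibroblasts and infiltrating leukocytes.

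In GRCm38 coordinates of the deposited table, the subunit genes lie at chr3:135584655-135691969 (Nfkb1), chr19:46300994-46312400 (Nfkb2), chr11:23736847-23770969 (Rel) and chr7:19606217-19629438 (Relb). The cytoplasmic inhibitor genes lie at chr12:55489409-55492647 (Nfkbia) and chr17:45555700-45563169 (Nfkbie), and Tnfaip3 lies at chr10:19000910-19015410. The nuclear IκB genes lie at chr16:55811375-55838954 (Nfkbiz), chr7:19808462-19822824 (Bcl3) and chr7:30421731-30428749 (Nfkbid). Relb, Bcl3 and Nfkbid are thus all on chromosome 7. NF-κB sites are known in front of several NF-κB genes, and the members' promoters were searched for them. RefSeq windows of 300 bases (250 before and 50 after each transcription start, GRCm38.p6) were given for 7 of the 10 members, and Nfkb1, Relb and Nfkbiz had no entry. All 7 held at least 1 match to the 10-base NF-κB consensus, searched on both strands. Among all genes with a window, 5.14% (1388 of 27025) held a match. A gene with several starts has several windows, and 9 of the 12 windows of the 7 members held a match, against 4.51% of all 32851 windows. Overlapping windows of Nfkb2 hold the same site (chr19:46305693-46305726), which counts for both windows and is shown once. The matched stretches are shown because the consensus is the motif that dimers of these subunits are known to bind. Capitals mark the stretch that matches, with overlapping matches on either strand joined, and 12 flanking bases stand on each side.
Rel, chr11:23771039-23771073, minus strand: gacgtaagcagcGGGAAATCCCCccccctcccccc
Nfkb2, chr19:46304686-46304720, plus strand: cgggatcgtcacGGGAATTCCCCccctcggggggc
Nfkb2, chr19:46304714-46304747, plus strand: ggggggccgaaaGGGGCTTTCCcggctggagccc
Nfkb2, chr19:46305447-46305480, plus strand: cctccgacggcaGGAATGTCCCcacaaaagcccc
Nfkb2, chr19:46305693-46305726, plus strand: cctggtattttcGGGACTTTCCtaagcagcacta
Nfkbia, chr12:55492655-55492688, minus strand: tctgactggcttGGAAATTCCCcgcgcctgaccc
Nfkbie, chr17:45555582-45555615, plus strand: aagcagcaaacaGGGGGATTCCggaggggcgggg
Bcl3, chr7:19822732-19822765, minus strand: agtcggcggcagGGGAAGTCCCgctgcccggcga
Nfkbid, chr7:30422168-30422201, plus strand: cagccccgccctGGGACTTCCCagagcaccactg
Nfkbid, chr7:30422213-30422246, plus strand: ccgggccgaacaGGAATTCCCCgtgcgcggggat
Tnfaip3, chr10:19015514-19015547, minus strand: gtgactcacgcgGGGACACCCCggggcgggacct
Tnfaip3, chr10:19015401-19015434, minus strand: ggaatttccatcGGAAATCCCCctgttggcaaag

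A stretch that matches is a description of these letters and was not tested for binding. In Rel and in the first window of Nfkb2 the joined stretch was 11 bases long and held 3 overlapping matches. Sites close to a start were found in Bcl3 (bases 2 to 11, past the start), in 2 windows of Nfkb2 (-11 to -2 and 10 to 19), in Tnfaip3 (-12 to -3) and in Nfkbia (-29 to -20). The whole windows are given for Nfkbia, the inhibitor with the highest transcript level, and for the Nfkbid start with both of its sites, since Nfkbid had the largest fitted difference between genotypes.
Nfkbia promoter window, chr12:55492598-55492897, minus strand: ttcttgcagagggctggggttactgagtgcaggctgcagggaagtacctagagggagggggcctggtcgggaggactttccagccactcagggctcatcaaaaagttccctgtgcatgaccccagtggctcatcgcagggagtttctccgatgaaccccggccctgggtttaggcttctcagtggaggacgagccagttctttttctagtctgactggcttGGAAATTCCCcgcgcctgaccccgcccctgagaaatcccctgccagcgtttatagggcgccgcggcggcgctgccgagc
Nfkbid promoter window, chr7:30422156-30422455, plus strand: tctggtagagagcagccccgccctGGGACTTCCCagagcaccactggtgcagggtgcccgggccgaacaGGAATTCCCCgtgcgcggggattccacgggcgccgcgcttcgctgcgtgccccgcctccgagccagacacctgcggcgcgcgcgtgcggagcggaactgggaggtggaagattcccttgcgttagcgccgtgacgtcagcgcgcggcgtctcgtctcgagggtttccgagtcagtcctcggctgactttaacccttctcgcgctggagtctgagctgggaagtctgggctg

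Transcript levels per length were compared with the deposited FPKM, which scales fragments by transcript length and library depth. Nfkbia, which encodes IκBα, had the highest level at 57.1 FPKM (mean of the 8 mice), followed by Nfkb1 at 24.3 and Nfkb2 at 12.1. Nfkbiz was at 9.85 FPKM, Bcl3 at 9.43, Tnfaip3 at 8.06, Relb at 7.69, Nfkbie at 5.50 and Rel at 3.93. Nfkbid was the lowest member at 1.41 FPKM. Nfkbia was above Nfkb1 in 8 of 8 mice, and its lowest value (40.1 FPKM) was above the highest of Nfkb1 (32.9 FPKM). Every other pair of neighbours in this order overlapped between mice. Nfkbiz was above Bcl3 in 5 of 8 mice and Tnfaip3 was above Relb in 5 of 8, so the order within these pairs was not larger than the spread. Nfkb1 was above Nfkb2, and Relb above Nfkbie, in 8 of 8 mice.

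Libraries held 16056282 to 19880654 estimated counts, and a member had between 26 (Nfkbid) and 2530 (Nfkb1) counts in a library. The members' levels between mice are given below as CPM, counts scaled to the size of each library after TMM adjustment. Tbx20 had 0 to 3 counts in the TBX20fl/fl mice and 0 to 2 in the TBX20fl/fl;K14-Cre mice. At such counts Tbx20 could not check the genotype labels. TBX20fl/fl replicate 2 stood apart: its TMM factor was 0.735, against 1.01 to 1.04 in the other controls, and its deviation from the median mouse fell with transcript length (Spearman rho -0.78 over 13296 genes, which are not independent). Control replicate 3 had a trend of the same sign (rho -0.55), the other 2 controls were near 0 (0.07 and 0.08), and knockout replicates 1 to 4 were at 0.29, -0.05, 0.47 and 0.46. The length trend thus differed between libraries and leaned with genotype, and its part in the differences below was not tested apart from the fits that remove it. The members and the gene lists are therefore also given without control replicate 2 and with each library's length trend removed. Keratinocyte markers were present at similar mean levels in both genotypes (9.21 to 9.41 log2 CPM in TBX20fl/fl;K14-Cre skin and 8.96 to 9.52 in TBX20fl/fl skin).

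Among the 17124 genes tested with edgeR's quasi-likelihood test, 0 passed an adjusted p of 0.05 and 1431 had an unadjusted p below 0.05. DESeq2 called 10 genes and limma on FPKM called 0, and 0 members were called by any of them. The share of all genes called at the adjusted threshold was thus 0% in edgeR and limma, and 10 of 17124 genes in DESeq2. The genotype differences below are values that did not pass the edgeR test. By unadjusted p, 3 members (Nfkbie, Nfkbiz and Nfkbid) had lower levels in the knockout mice at p below 0.05, against 5.91% of all genes lower. Of all genes 2.45% were higher at that p, and 0 members were. The fitted log2 fold change was below 0 for 7 of 10 members, against 47.5% of all genes. The median fold change of the members was -0.38 on the log2 scale, against 0.03 for all genes. The 3 positive values were those of subunits. All 6 inhibitors were below 0, with a median of -0.47, and the median of the 4 subunits was 0.05.

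**Figure D1:**
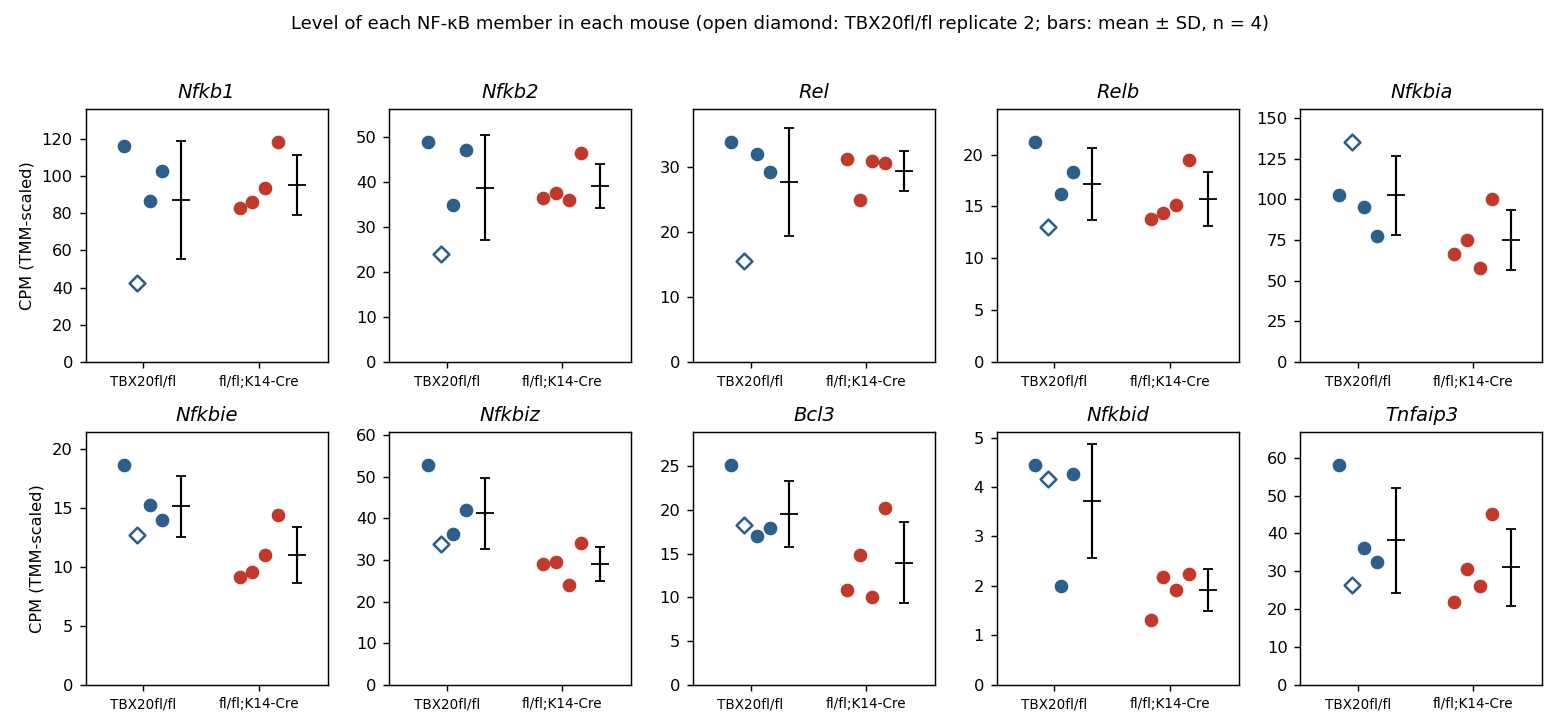
TMM-scaled CPM (vertical axis, from 0) of the 10 members in each mouse, with TBX20fl/fl in blue and TBX20fl/fl;K14-Cre in red, points in replicate order, the open diamond for TBX20fl/fl replicate 2 and bars for mean ± SD (n = 4). The diamond is the lowest control for all 4 subunits, and in every panel the genotypes overlap, for Nfkbiz by less than 0.1 CPM.

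The subunits bind DNA, and with all 8 mice their fitted differences in edgeR were smaller than those of the inhibitors. This order did not hold in each fit: Rel (-0.30) exceeded Nfkbia (-0.19) with the length trend removed, and Nfkb1 (0.30) exceeded Tnfaip3 (-0.03) without control replicate 1. In limma on FPKM with all 8 mice, Nfkb1 (0.35) exceeded in size every inhibitor but Nfkbid (-0.43). Nfkb1 encodes p105, the precursor of p50. It was at 82.8, 86.1, 93.7 and 118 CPM in TBX20fl/fl;K14-Cre replicates 1 to 4 and at 116, 42.7, 86.9 and 103 CPM in TBX20fl/fl replicates 1 to 4. Replicate 2 of the controls was below all other mice, and the other 3 controls lay within the range of the knockout mice. The fitted log2 fold change of Nfkb1 was 0.13 (SE 0.28), with an adjusted p of 0.803 in edgeR. Nfkb2 encodes p100, the precursor of p52 in the alternative pathway. Its levels were 36.4, 37.5, 36.0 and 46.3 CPM in the knockout mice and 48.8, 23.9, 34.9 and 47.0 CPM in the controls. The genotypes overlapped, and the log2 fold change of Nfkb2 was 0.01 (SE 0.23, adjusted p = 0.980 in edgeR).

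Rel encodes c-Rel, a subunit best known from lymphoid and myeloid cells. It was at 31.1, 24.8, 30.9 and 30.6 CPM in TBX20fl/fl;K14-Cre skin and at 33.8, 15.5, 32.0 and 29.2 CPM in TBX20fl/fl skin. Apart from control replicate 2 and knockout replicate 2, the 6 mice lay within 29.2 to 33.8 CPM. Its fitted log2 fold change was 0.09 (SE 0.23, adjusted p = 0.840 in edgeR). Relb encodes RelB, the partner of p52. It was at 13.8, 14.4, 15.1 and 19.5 CPM in the knockout mice and at 21.2, 13.0, 16.2 and 18.3 CPM in the controls, again with overlap. Relb had a log2 fold change of -0.13 (SE 0.19, adjusted p = 0.705 in edgeR).

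For Nfkb1, Nfkb2 and Rel the sign of the fitted difference changed when TBX20fl/fl replicate 2 was left out. Without it, the log2 fold changes were -0.10 for Nfkb1, -0.16 for Nfkb2, -0.11 for Rel and -0.24 for Relb. The 4 subunits then had a median of -0.13, and 0 of them had an unadjusted p below 0.05. The level of the members in this library, as a ratio to the median of the other 3 controls, was 0.42 for Nfkb1, 0.49 for Rel, 0.51 for Nfkb2 and 0.71 for Relb. It was 1.42 for Nfkbia, which has the shortest effective transcript length of the members (1530 bases). Rel has the longest effective length, 7415 bases. With the length trend removed the log2 fold change of Rel was -0.30 (SE 0.12, unadjusted p = 0.0272, adjusted p = 0.534 in edgeR). The other 3 subunits then lay between -0.06 and 0.01.

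**Figure D2:**
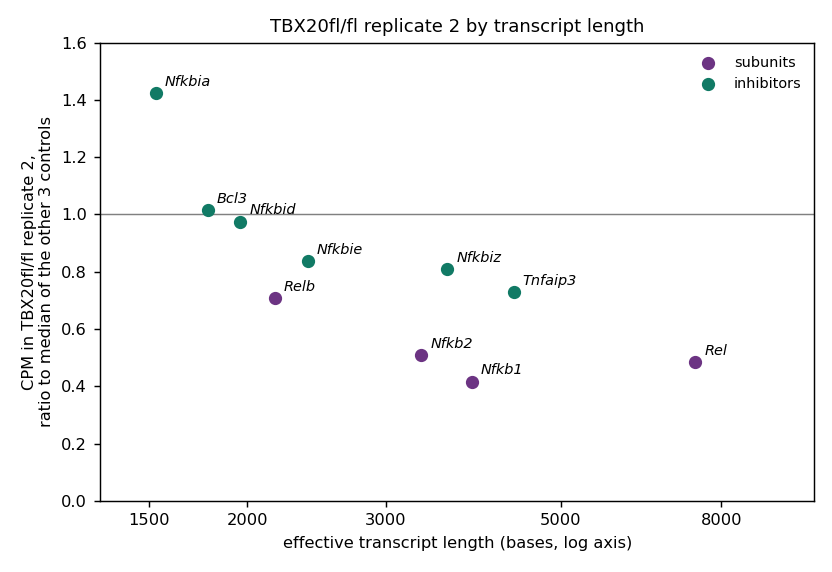
Effective transcript length in bases (horizontal, log axis) against the CPM of each member in TBX20fl/fl replicate 2 as a ratio to the median of the other 3 controls (vertical axis, from 0), with subunits in purple and inhibitors in green. Nfkbia, the shortest, is at 1.42, Bcl3 and Nfkbid are near 1, and Nfkb1, Nfkb2 and Rel are at 0.42 to 0.51. Tnfaip3 (0.73) and Nfkbiz (0.81) are longer than Nfkb2 and lie above it.

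The cytoplasmic inhibitors were lower in the mean in TBX20fl/fl;K14-Cre skin, with overlap between genotypes. Nfkbia was at 66.2, 74.8, 57.5 and 100.2 CPM in the knockout mice and at 102, 135, 95.1 and 77.5 CPM in the controls. Knockout replicate 4 lay among the controls, and control replicate 4 was near knockout replicate 2. For Nfkbia the log2 fold change was -0.46 (SE 0.22, unadjusted p = 0.0716, adjusted p = 0.498 in edgeR). It was -0.30 without control replicate 2 and -0.19 with the length trend removed. Nfkbie encodes IκBε, which acts beside IκBα with slower kinetics. It was at 9.10, 9.56, 11.0 and 14.4 CPM in the knockout mice and at 18.6, 12.7, 15.2 and 13.9 CPM in the controls. Only knockout replicate 4 reached the range of the controls. The log2 fold change of Nfkbie was -0.46 (SE 0.20, unadjusted p = 0.0435, adjusted p = 0.498 in edgeR), and it was -0.53 without control replicate 2. Nfkbie was lower in the knockout mouse of 3 of 4 pairs of equal replicate number. The labels do not state that these mice are pairs. With the replicate block the log2 fold change was -0.47 (SE 0.21) and the unadjusted p 0.0616 in edgeR, so the unadjusted call was lost at a fold change of about the same size.

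Nfkbiz encodes IκBζ, which in keratinocytes is needed for a set of genes that respond to IL-17 and IL-36. It was at 28.9, 29.4, 24.0 and 34.0 CPM in TBX20fl/fl;K14-Cre skin and at 52.9, 33.9, 36.1 and 41.9 CPM in TBX20fl/fl skin. The highest knockout mouse lay above the lowest control by less than 0.1 CPM, and the other 6 mice fell on their own genotype's side. Nfkbiz was lower in the knockout mouse of 4 of 4 pairs of equal replicate number, a pairing that the labels do not state. The log2 fold change of Nfkbiz was -0.50 (SE 0.18, unadjusted p = 0.0199, adjusted p = 0.498 in edgeR), or 29.5% lower. Without control replicate 2 it was -0.59 (unadjusted p = 0.0048), and with the length trend removed it was -0.63 (unadjusted p = 0.0012). It was the member with the smallest p in both of these fits, where the adjusted p was 0.638 and 0.534. Removal of the length trend raised Nfkbiz in control replicate 2 from 5.09 to 5.52 log2 CPM. The exact permutation test of the difference in mean CPM gave p = 0.0571 with all 8 mice, two-sided, where the smallest possible p is 0.0286. On mean FPKM the same exact permutation test gave p = 0.257 for Nfkbiz.

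Bcl3 encodes a nuclear IκB protein that binds p50 and p52 dimers. It was at 10.9, 14.8, 10.0 and 20.2 CPM in the knockout mice and at 25.2, 18.2, 17.0 and 17.9 CPM in the controls. Knockout replicate 4 was above 3 of the 4 controls, and the other 3 knockout mice were below all of them. Bcl3 had a fitted log2 fold change of -0.49 (SE 0.25, unadjusted p = 0.0782, adjusted p = 0.498 in edgeR). Nfkbid encodes IκBNS, the least abundant member, with 26 to 90 counts in a library. It was at 1.31, 2.19, 1.91 and 2.25 CPM in the knockout mice and at 4.45, 4.15, 1.99 and 4.26 CPM in the controls. Control replicate 3 lay within the knockout range and the other 3 controls were above every knockout mouse. The log2 fold change of Nfkbid was -0.95 (SE 0.30, unadjusted p = 0.0116, adjusted p = 0.498 in edgeR), or 48.3% lower, the largest difference among the members. It was -0.90 without control replicate 2 and -0.83 with the length trend removed. Nfkbid was lower in the knockout mouse of 4 of 4 pairs of equal replicate number, again a pairing not stated in the labels. DESeq2 gave it the smallest adjusted p of the members, 0.243.

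Tnfaip3 encodes A20, an enzyme that edits ubiquitin chains on signalling proteins upstream of the IκB kinases. It was at 22.0, 30.7, 26.2 and 45.2 CPM in TBX20fl/fl;K14-Cre skin and at 58.2, 26.3, 36.0 and 32.6 CPM in TBX20fl/fl skin. The genotypes overlapped across most of their range, and the 2 highest values were control replicate 1 and knockout replicate 4. For Tnfaip3 the fitted log2 fold change was -0.30 (SE 0.29, adjusted p = 0.576 in edgeR). It was -0.03 without control replicate 1, -0.45 without control replicate 2, -0.17 without knockout replicate 1 and -0.54 without knockout replicate 4. With the length trend removed it was -0.50.

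**Figure D3:**
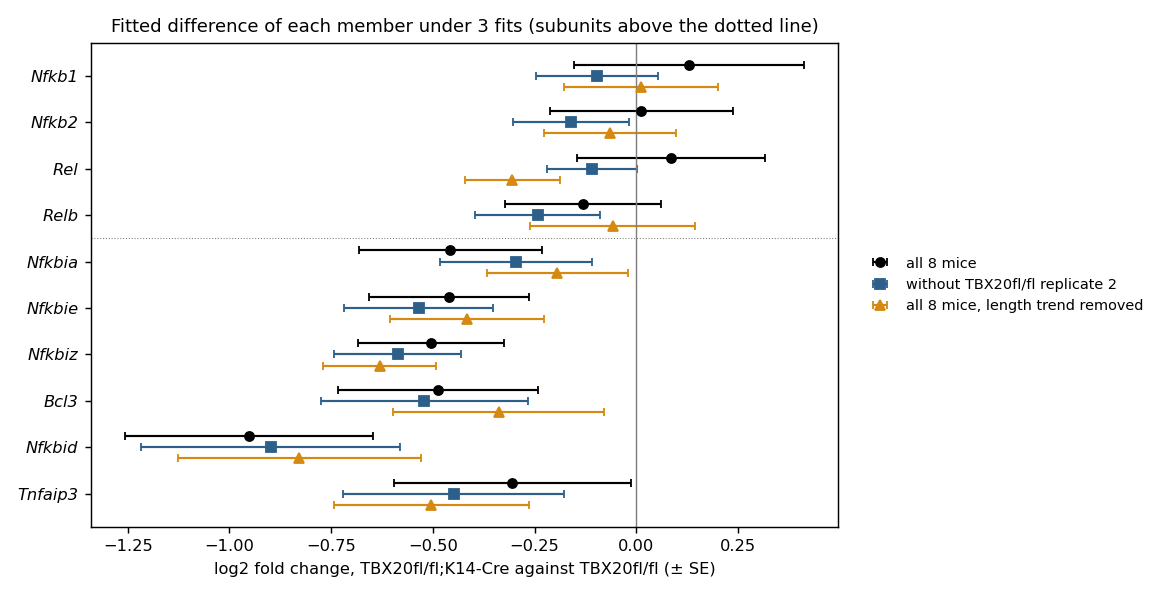
Fitted log2 fold change ± SE (horizontal axis, TBX20fl/fl;K14-Cre against TBX20fl/fl) of each member with all 8 mice (black circles), without TBX20fl/fl replicate 2 (blue squares) and with the length trend of each library removed (orange triangles). The 6 inhibitors, below the dotted line, lie below 0 in all 3 fits (Nfkbid from -0.95 to -0.83), while Nfkb1, Nfkb2 and Rel change sign.

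The inhibitors kept a fold change below 0 in all 18 count-based alternatives for each of the 6 genes, which share most of their mice. Without control replicate 2, 3 inhibitors had an unadjusted p below 0.05 (Nfkbie, Nfkbiz and Nfkbid), against 4.50% of all genes lower in that fit. With the length trend removed, 3 members did (Rel, Nfkbiz and Nfkbid), against 5.22% of all genes. Every knockout mouse below every control was seen for 0 of 10 members in FPKM, against 1.92% of the 15969 genes tested. In CPM without control replicate 2 it was seen for 1 member, Nfkbiz, against 3.91% of all genes, and in FPKM without that library for 0 members. FPKM moved the median of all genes by 0.12 on the log2(FPKM + 1) scale. Relative to that shift, the inhibitors lay between -0.55 (Nfkbid) and -0.23 (Tnfaip3), and the subunits between -0.08 (Relb) and 0.24 (Nfkb1), on a scale that understates the change of low genes. The smallest adjusted p of a member in limma was 0.457, and 0.376 (Nfkbid) with the replicate block.

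Single mice stood out across the members. TBX20fl/fl;K14-Cre replicate 4 was the highest mouse of its genotype in 9 of 10 members and in 6 of 6 inhibitors. TBX20fl/fl replicate 1 was the highest control in 9 of 10 members, and TBX20fl/fl replicate 2 was the lowest in 7 of 10. Without knockout replicate 4, 5 members were lower at an unadjusted p below 0.05, against 4.10% of all genes. Without knockout replicate 3, 1 member (Nfkbid) was, against 3.22% of all genes. Without control replicate 1, 1 member (again Nfkbid) was, against 10.9% of all genes, a share near that of the members.

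The inhibitors were also compared with the subunits within each mouse, as the difference between their mean log2 CPM. This difference was -1.33, -0.97, -1.32 and -0.97 in TBX20fl/fl;K14-Cre replicates 1 to 4 and -0.60, 0.06, -0.81 and -0.86 in TBX20fl/fl replicates 1 to 4. All 4 knockout mice lay below all 4 controls. The highest value, in control replicate 2, came from the library that was low in long transcripts. With the length trend removed, the values were -1.29, -0.97, -1.26 and -0.92 in the knockout mice and -0.60, -0.51, -0.91 and -0.85 in the controls, so the genotypes then only just separated. These values describe genes grouped by role but chosen with earlier results of these data known. No p was computed for them, nor how often other gene groups separate in this way.

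The rest of the pathway was described with lists of its genes, of which the 3 with the smallest p are named. Their counts are to be read against the 5.91% of all genes that were lower at an unadjusted p below 0.05, and 0 genes of these lists passed the adjusted threshold. Rela, the main activating subunit, had a log2 fold change of 0.12, and of -0.05 without control replicate 2. Nfkbib (IκBβ) was at -0.26, and at 0.04 with the length trend removed. Among 11 kinases that activate NF-κB, 1 was lower at that p, Map3k8, at -0.38, and between -0.34 and -0.38 in the 3 fits. Without control replicate 2, 2 kinases were lower and 1 was higher at that p, and with the length trend removed 2 were lower. Tbk1 was at -0.24. Tab3 was at 0.37, and at 0.01 with the length trend removed. The median of the kinases was 0.14 with all 8 mice, -0.01 without control replicate 2 and -0.10 with the length trend removed, so its sign turned.

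Among 22 receptors and adaptors, 3 were lower at an unadjusted p below 0.05, which became 2 without control replicate 2 and 6 with the length trend removed. They were the co-stimulatory receptor Cd40 (-1.08, and -0.77 without control replicate 2), the Toll-like receptor adaptor Myd88 (-0.65 and -0.47) and the lipoprotein receptor Tlr2 (-0.48 and -0.46). Among 6 genes of ubiquitin ligases and their partners, 1 was, Birc3 (-0.36, itself a target of NF-κB). Birc2 was at -0.20. Ube2n, which encodes the ubiquitin-conjugating enzyme UBC13, was at -0.56, and at -0.20 without control replicate 2. Among 13 other negative regulators, 2 were, the A20-binding protein gene Tnip3 (-1.24, and -0.81 without control replicate 2) and the endoribonuclease gene Zc3h12a (-0.45 and -0.59). Commd1 was at -0.72 with all 8 mice, -0.21 without control replicate 2 and -0.10 with the length trend removed. The size of the Ube2n, Tnip3 and Commd1 values thus depended on that library. With the length trend removed, 2 of the ubiquitin list and 3 of the other negative regulators were lower at an unadjusted p below 0.05. With the replicate block these lists had 0 and 1, so that Birc3 lost this call, and the receptors and adaptors had 2.

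The genes that NF-κB is known to induce were described in the same way. Of 28 target genes, 27 had a log2 fold change below 0 and 18 were lower at an unadjusted p below 0.05, with a median of -0.78 and with 0 past the adjusted threshold. Of all genes, 47.5% were below 0 and 5.91% were lower at that p. The cytokine gene Il1a was at 14.5 ± 1.26 FPKM in TBX20fl/fl;K14-Cre skin and 22.1 ± 3.39 FPKM in TBX20fl/fl skin (mean ± SD, n = 4 each). Il1b was at 33.0 ± 19.9 and 114 ± 60.0 FPKM, with a log2 fold change of -2.06 (SE 0.56, adjusted p = 0.498 in edgeR). Csf3, the granulocyte growth factor gene, was at 0.46 ± 0.30 and 1.11 ± 0.24 FPKM. The 18 became 13 without control replicate 2 and 11 with the length trend removed, 8 without knockout replicate 1, 10 without knockout replicate 3 and 14 with the replicate block. The shares of all genes in the last 3 fits were 3.15%, 3.22% and 6.54%. The median of the targets was -0.51 without control replicate 2 and -0.59 with the length trend removed. In these 2 fits Il1a was at -0.55 and -0.64, Il1b at -1.43 and -1.61 and Csf3 at -1.38 and -1.14 on the log2 scale. Of 9 genes known to depend on IκBζ, 9 were below 0 and 7 were lower at an unadjusted p below 0.05, with a median of -1.23. Both other fits gave 6 at that p, with medians of -0.96 without control replicate 2 and -1.08 with the length trend removed. The antimicrobial protein gene Lcn2 was at 15.0 ± 2.81 and 39.3 ± 11.7 FPKM (log2 fold change -1.61, adjusted p = 0.498 in edgeR). S100a9 was at 83.1 ± 37.2 and 296 ± 187 FPKM, and Il1f9, the IL-36γ gene, at 34.7 ± 2.55 and 49.2 ± 5.68 FPKM. Without control replicate 2, the log2 fold changes were -1.28 for Lcn2, -1.59 for S100a9 and -0.47 for Il1f9, and with the length trend removed -1.08, -1.36 and -0.44. The study reported Lcn2 as significantly lower in these samples by its own count-based analysis. It also found Lcn2 lower by RT-qPCR in BNP-injected cheek skin. The edgeR test used here did not call Lcn2, so the 2 analyses of these samples differ on it. The study picked Lcn2 from these samples, so that gene is not independent evidence of a direction, and 5 genes stand in both lists.

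**Figure D4:**
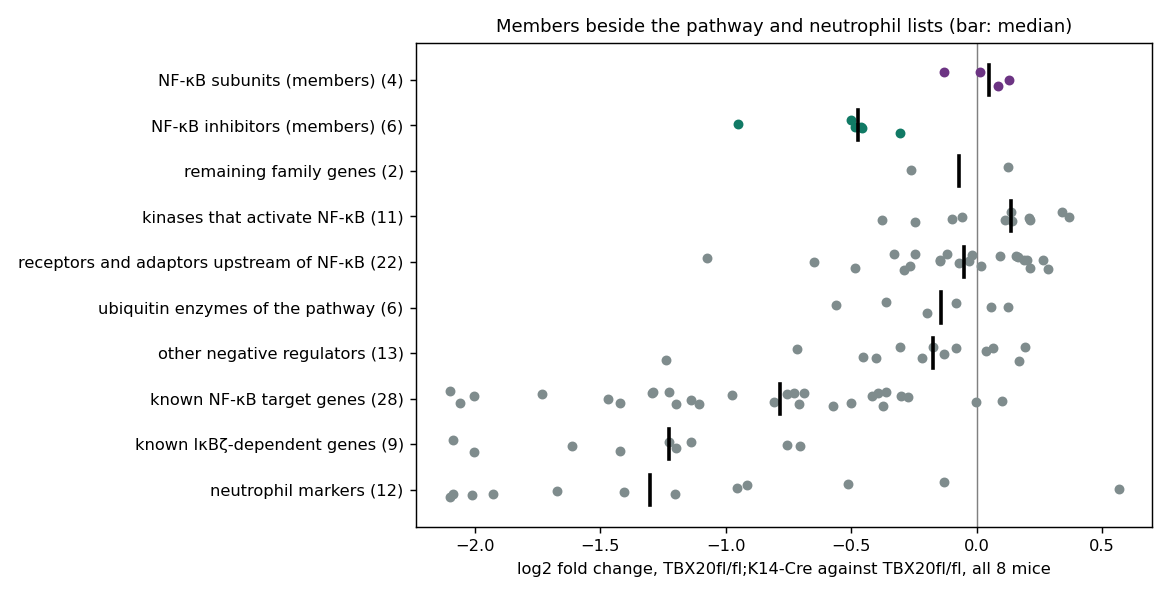
Log2 fold change (horizontal axis, TBX20fl/fl;K14-Cre against TBX20fl/fl, all 8 mice) of each gene, 1 point a gene, in the subunits (purple), the inhibitors (green), the pathway lists and the neutrophil markers (grey), with the number of genes in brackets and black bars at the medians. The medians are 0.05 for subunits, -0.47 for inhibitors, 0.14 for kinases, -0.78 for target genes, -1.23 for IκBζ-dependent genes and -1.30 for neutrophil markers. Without TBX20fl/fl replicate 2 the kinase median is -0.01 and the target median -0.51.

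Marker lists of cell types were described beside these genes, and 0 markers passed the adjusted threshold. The B cell, keratinocyte, skeletal muscle and adipocyte lists had 0 genes at an unadjusted p below 0.05 in either direction with all 8 mice. Among all genes, 5.91% were lower and 2.45% were higher at an unadjusted p below 0.05 with all 8 mice. Of 12 neutrophil markers 11 were below 0 and 8 were lower at that p, with a median log2 fold change of -1.30. These became 7 and -1.07 without control replicate 2, and 8 and -1.04 with the length trend removed. Their summed level was 82.1 to 189 CPM in TBX20fl/fl;K14-Cre skin and 197 to 615 CPM in TBX20fl/fl skin. The granule protein genes Camp, Ngp and Ltf had few counts in both genotypes, 0 to 16 a library in the knockout mice and 1 to 10 in the controls. Each of them was at 0 in 1 knockout library, and Camp had a log2 fold change of 0.57. S100a9 is on both the neutrophil and the IκBζ list. Of 11 monocyte and macrophage markers, 9 were below 0 and 5 were lower at that p, with a median of -0.59. These 5 became 2 without control replicate 2 and 3 with the length trend removed, with medians of -0.36 and -0.15. Of 5 mast cell markers 4 were below 0 and 2 were lower at that p, Cpa3 (-0.92) and Cma1 (-0.75). The count of 2 was the same without control replicate 2 and with the length trend removed, where the list's median of -0.38 became -0.18 and 0.06. Their mean level was 6.30 to 6.43 log2 CPM in the knockout mice and 6.55 to 7.10 in the controls, without overlap. Hair follicle markers went the other way: 5 of 6 were higher at an unadjusted p below 0.05, with a median of 2.88. Without control replicate 2, 2 of 6 were, with a median of 3.21, and with the replicate block 4 of 6 were, with a median of 1.79. With the length trend removed 5 of 6 were, with a median of 3.16. Their summed level was 2369 CPM in knockout replicate 2, 45.3 to 315 CPM in the other 3 knockout mice and 18.3 to 143 CPM in the controls. Of 6 fibroblast markers 2 were higher at that p, Col1a1 (1.10) and Col1a2 (0.75), while Dcn (-0.64) and Lum (-0.52) were below 0. Their median of 0.40 was 0.04 with the length trend removed, where 1 was higher at that p. Of 9 T cell markers 8 were below 0 and 2 were lower at that p (median -0.54), and of 7 dendritic and Langerhans cell markers 6 and 2 (median -0.40). With the length trend removed these 2 lists had 1 and 0 at that p and medians of -0.29 and -0.10. Without control replicate 2 they also had 1 and 0, with medians of -0.39 and -0.22. Of 5 endothelial markers 0 were below 0 and 0 were higher at that p (median 0.39), and 3 were higher at that p with the replicate block. Their median was 0.16 without control replicate 2 and 0.24 with the length trend removed. In each of these fits 1 was below 0 and 0 were higher at that p. The part of these cells in the levels of the members was not tested, and in whole skin fewer cells of a type and less RNA per cell cannot be told apart.

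Per mouse, the order differed between the groups of genes. Mean log2 CPM of the target genes was 3.06, 3.54, 3.24 and 3.90 in TBX20fl/fl;K14-Cre replicates 1 to 4 and 4.22, 4.84, 4.11 and 3.94 in TBX20fl/fl replicates 1 to 4, so knockout replicate 4 was close to control replicate 4. The inhibitors were at 3.76, 4.07, 3.83 and 4.44 in the knockout mice and at 4.89, 4.48, 4.34 and 4.47 in the controls. Here knockout replicate 4 lay among the controls. The subunits were at 5.08, 5.04, 5.15 and 5.41 in the knockout mice and at 5.49, 4.42, 5.15 and 5.33 in the controls. Control replicate 2 was thus lowest for the subunits and highest for the target genes and the neutrophil markers (3.10).

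**Figure D5:**
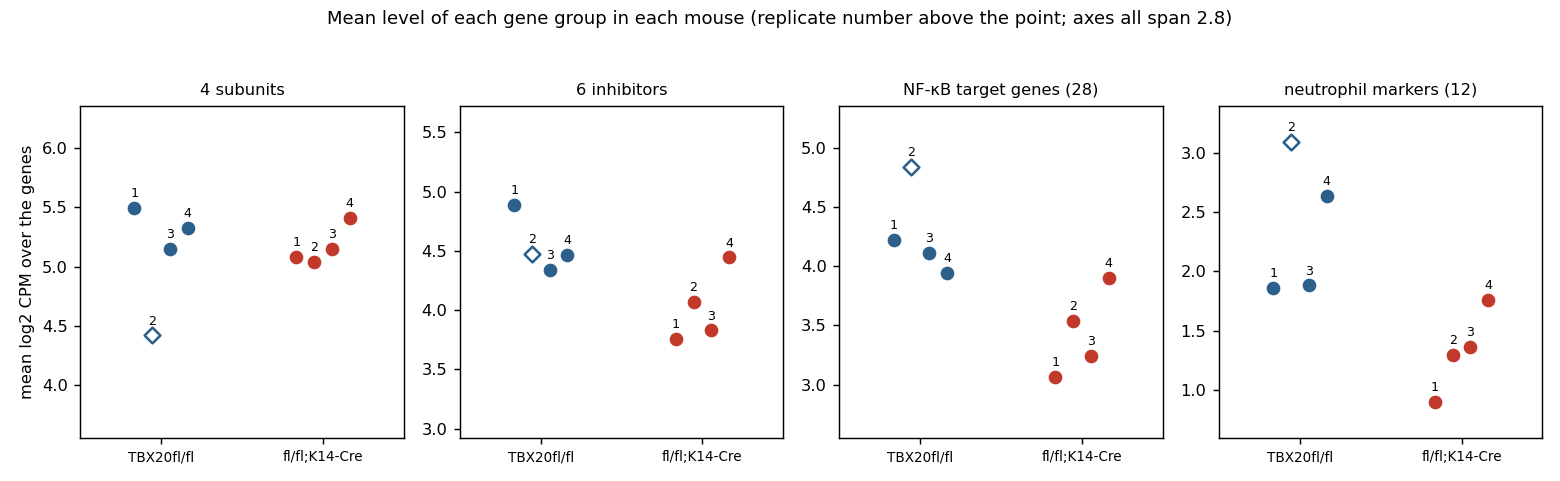
Mean log2 CPM (vertical axis, each panel spanning 2.8) of the 4 subunits, 6 inhibitors, 28 NF-κB target genes and 12 neutrophil markers in each mouse, with TBX20fl/fl in blue, TBX20fl/fl;K14-Cre in red, replicate numbers above the points and the open diamond for TBX20fl/fl replicate 2. That mouse is lowest for subunits (4.42) and highest for target genes (4.84), and knockout replicate 4 is the highest red point in each panel.

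The 5 genes whose levels followed the members most closely were found by the Pearson correlation of log2 CPM with the mean standardized level of the 10 members over 8 mice, among 17114 other genes. They were Sele (r = 0.97), Khdc1a (0.96), Nlrp3 (0.96), Tnfaip2 (0.94) and Jak2 (0.93). Sele encodes E-selectin, the leukocyte adhesion molecule of activated endothelium, and Nlrp3 an inflammasome sensor. Sele kept first place without control replicate 2 (r = 0.98), where the other 4 ranked 13, 22, 9 and 31. These are descriptions over libraries that share their depth and composition differences. Sele is also on the list of NF-κB target genes.

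Some members share sequence or position with other genes, which bears on their counts. In the annotation, 14.9% of the 50-base stretches of Nfkb2 transcripts also occur in other genes, one of which is Psd, whose RefSeq gene overlaps Nfkb2. This share was 2.68% for Bcl3, under 1% for Relb, Nfkb1 and Rel, and 0 for Nfkbia, Nfkbie, Nfkbiz, Nfkbid and Tnfaip3. Values of Nfkb2 are uncertain to that extent, since reads of a shared stretch could have been split. RefSeq also places a non-coding RNA gene over part of Nfkb1, Nfkb2 and Bcl3, and without strand the reads of such partners cannot be told apart.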

How the data were processed

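RNA from the injected cheek was converted to poly(A)-selected libraries without a stated strand protocol and sequenced as single 50-base reads. Per the labels and the study's methods, the authors filtered reads with SOAPnuke and aligned them with HISAT. The counting program is not given in the sources used here. The authors deposited estimated counts (69.0% of those above 0 are not whole, unnormalized) and FPKM values, normalized by transcript length and library depth. The 16 per-sample columns of TPM and normalized counts, and the authors' group means and comparisons (fold changes, p-values), were not used. Of 18901 gene identifiers, 18843 matched RefSeq.

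Counts were rounded, TMM-scaled and compared with edgeR 4.0.16 (quasi-likelihood, R 4.3.3) in 17124 genes with at least 10 counts over 8 libraries, with Benjamini-Hochberg adjustment over all of them. The script was checked on simulated counts. FPKM was compared with limma 3.58.1 on log2(FPKM + 1) where the mean was at least 0.1, and single genes by two-sided exact permutation over 70 assignments. DESeq2 1.42.0 and other alternatives are listed in the closing section. Length trends were lowess curves of each library's log2 deviation on effective length. A detection floor of 3 counts equals 0.151 to 0.187 CPM by library, for counting error only. Libraries of one replicate number deviated together weakly (r = 0.11 to 0.32 for the 4 pairs, -0.41 to 0.32 for other pairs). Of the 8 libraries, 6 were closest to their own number. The labels do not state a pairing. Equal numbers were taken as pairs only for the counts of pairs and for a fit with the replicate block, an alternative. Members and gene lists were chosen with earlier results of these data known. Text names all members, the 3 list genes with the smallest p and the 5 genes most like the members.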

Additional observations from a re-analysis of the deposited data

Results flagged for a closer look

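In groups of 4 libraries, the value farthest from the rest was compared with Dixon's critical value, which chance exceeds in about 1 of 20 groups. Over the 22 groups examined, 2 values exceeded it. Rel was at 3.56 FPKM in TBX20fl/fl;K14-Cre replicate 2, against 4.33 to 4.44 FPKM in the other 3 knockout libraries. The second flag was the TMM factor of 0.735 in TBX20fl/fl replicate 2 (other 3 control libraries, 1.01 to 1.04), the library in which the long subunit transcripts were low.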

How the results depend on the processing

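The 6 inhibitors kept a negative log2 fold change in all 108 combinations of gene and alternative, and 56 of 72 combinations for the subunits kept their sign. Relb kept its sign in 18 of 18. When 1 mouse was left out, the highest values were 0.30 for Nfkb1, 0.14 for Nfkb2 and 0.20 for Rel, each without TBX20fl/fl replicate 1. Nfkb1 turned to -0.10 without TBX20fl/fl replicate 2, -0.14 with the length trend also removed and -0.049 without both mice numbered 2 under the replicate block. Nfkb2 turned to -0.0012 under upper-quartile normalization, -0.064 with the length trend removed, -0.044 with the replicate block as well, -0.16 without TBX20fl/fl replicate 2, -0.03 without TBX20fl/fl replicate 3, -0.08 without TBX20fl/fl;K14-Cre replicate 4, -0.18 with the length trend removed and no TBX20fl/fl replicate 2, and -0.13 without both mice numbered 2. Rel turned to -0.30 with the length trend removed, -0.30 with the replicate block as well, -0.11 without TBX20fl/fl replicate 2, -0.25 with both and -0.027 without both mice numbered 2. The cause of these turns was not tested beyond the 2 settings named. Each value without both mice numbered 2 also has the replicate block. These alternatives, and those that combine the length trend with a left-out mouse, were chosen after seeing the data.

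Genes past the adjusted threshold numbered 0 in edgeR with all mice, 10 in DESeq2 and 0 in each edgeR fit without 1 mouse. They numbered 5 in the edgeR fit that both left out the mice numbered 2 and had the replicate block. With the replicate block 0 genes passed and 2 members (Nfkbiz and Nfkbid) were lower at an unadjusted p below 0.05, against 3 without it, while the share of all genes lower at that p was 6.54% against 5.91%. Nfkbie then had a log2 fold change of -0.47 against -0.46, with an unadjusted p of 0.0616 and an adjusted p of 0.405 in edgeR. Members below that p ranged from 1 (without TBX20fl/fl;K14-Cre replicate 3, against 3.22% of all genes, or TBX20fl/fl replicate 1, against 10.9%) to 5 (without TBX20fl/fl;K14-Cre replicate 4, against 4.10%), and their median log2 fold change from -0.56 to -0.19. NF-κB target genes lower at that p numbered 8 to 21 when 1 mouse was left out. The 8 came without TBX20fl/fl;K14-Cre replicate 1, against 3.15% of all genes lower. The 21 came without TBX20fl/fl replicate 4. In that fit 2311 of 17012 genes were below that p in either direction, against 1431 of 17124 with all mice. The target genes numbered 11 with the length trend removed, against 5.22% of all genes lower, and 11 when TBX20fl/fl replicate 2 was also left out. In the fit without both mice numbered 2 and with the replicate block they numbered 11, and 14 with the block alone. Members without overlap in FPKM numbered 0 to 1 when 1 mouse was left out. The share of all genes was not computed for those sets of mice in FPKM, so this count cannot be read as a result about the members. Depth limits Nfkbid most, at 26 to 90 counts.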
